A study of Mus musculus with 6 samples.

Results

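The 9 genes described here encode transcription factors that turn dividing neural progenitors into neurons, followed from the proneural step to the postmitotic neuron: Neurog1, Neurog2, Insm1, Eomes, Neurod4, Nhlh1, Neurod1, Myt1 and Nhlh2. They were chosen by name, as the probe sets annotated with 1 of these symbols in both value tables, which gave 12 of 22690 probe sets and 8 of 12393 genes. No probe set in the annotation used here named Nhlh2, so Nhlh2 was not analysed here. The 8 measured genes all had a mean signal of at least 100 over the 6 arrays and were among the 8631 genes tested.

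The arrays held total RNA from brains of Swiss Albino mouse embryos at stage E11.5, 1 brain per array. The control group was 3 brains from normal, untreated mothers. The diabetic group was 3 brains, selected as malformed, from mothers made diabetic with streptozotocin (STZ), which kills pancreatic beta cells. Maternal diabetes, exposure of the mother to STZ and malformation of the brain cannot be told apart in this design. The labels do not say whether brains shared a litter, so the p-values measure only the spread between these brains.

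Neurogenesis in the embryonic brain begins when proneural factors of the basic helix-loop-helix (bHLH) family outcompete Notch signalling in a progenitor, drive it out of the cell cycle and switch on a cascade of further transcription factors. Neurog1 and Neurog2 (the neurogenins) start this programme, Insm1 and Eomes mark the basal progenitors and cells about to become neurons, and the bHLH factors Neurod4, Nhlh1 and Neurod1 act downstream in cells leaving the ventricular zone. Myt1 and Nhlh2 belong to newborn and early postmitotic neurons. The order is a textbook one, and the stages overlap in time and between brain regions. bHLH factors bind E-boxes, short sites of the form CANNTG.

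RefSeq promoter windows, from 250 bases before to 50 bases after the annotated start (build GRCm38.p6), were on hand for 8 of the 9 genes; Insm1 was the gene without one. Those below are shown because Neurog2 lay furthest below the controls on a single array, while Neurod4, Nhlh1 and Neurod1 are the bHLH genes placed downstream of the neurogenins. Capitals mark every E-box, with CANNTG searched on both strands (it reads as the same pattern on each). The windows lie at chr3:127632886-127633185 on the plus strand for Neurog2, chr10:130280089-130280388 on the minus strand for the second of 2 starts of Neurod4, chr1:172057547-172057846 on the minus strand for Nhlh1 and chr2:79456587-79456886 on the minus strand for Neurod1.
Neurog2: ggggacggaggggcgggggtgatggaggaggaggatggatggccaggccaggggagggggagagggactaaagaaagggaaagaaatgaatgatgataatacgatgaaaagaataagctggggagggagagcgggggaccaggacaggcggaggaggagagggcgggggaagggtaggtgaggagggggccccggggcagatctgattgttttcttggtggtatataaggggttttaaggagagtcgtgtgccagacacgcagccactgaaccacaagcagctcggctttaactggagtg
Neurod4: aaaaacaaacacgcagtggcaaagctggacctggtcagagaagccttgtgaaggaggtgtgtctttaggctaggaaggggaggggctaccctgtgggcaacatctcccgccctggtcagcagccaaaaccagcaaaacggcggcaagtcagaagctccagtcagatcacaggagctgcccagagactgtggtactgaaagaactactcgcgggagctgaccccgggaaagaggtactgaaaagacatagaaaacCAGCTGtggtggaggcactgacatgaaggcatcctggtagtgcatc
Nhlh1: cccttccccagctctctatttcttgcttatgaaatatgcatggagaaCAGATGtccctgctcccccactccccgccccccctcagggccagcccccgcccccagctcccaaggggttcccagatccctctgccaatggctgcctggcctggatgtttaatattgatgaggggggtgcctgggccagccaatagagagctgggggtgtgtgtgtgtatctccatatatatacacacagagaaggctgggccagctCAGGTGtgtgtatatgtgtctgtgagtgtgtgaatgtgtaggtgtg
Neurod1: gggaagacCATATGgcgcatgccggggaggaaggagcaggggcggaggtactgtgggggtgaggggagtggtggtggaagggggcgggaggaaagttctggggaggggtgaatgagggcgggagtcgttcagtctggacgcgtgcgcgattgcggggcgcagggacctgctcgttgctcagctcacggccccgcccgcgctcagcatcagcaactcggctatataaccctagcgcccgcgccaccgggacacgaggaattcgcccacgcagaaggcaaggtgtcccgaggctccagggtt

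The Nhlh1 window held 2 E-boxes, CAGATG and CAGGTG, the Neurod1 window held CATATG, and the second Neurod4 window held CAGCTG. The Neurog2 and Eomes windows and the first Neurod4 window held 0. Of 32544 RefSeq promoter windows of the same length, 72.3% held at least 1 CANNTG, and 17.1% held CAGATG or its reverse complement, so an E-box in such a window is common. These matches describe the letters of the windows, and binding was not measured.

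All 8 measured genes had a lower fitted level in the diabetic group, against 47.8% of all genes tested with a log2 change below 0. Their median log2 change was -0.38, against 0.012 over all genes tested. In whole brains, fewer cells of a type and less RNA per cell cannot be told apart. None passed the adjustment: limma called 0 of 8631 genes (0%) at an adjusted p under 0.05, with 655 genes at an unadjusted p under 0.05. The 8 lower levels rested largely on 1 brain, diabetic replicate 2. Without it 3 of the 8 genes were below 0, against 45.7% of all genes, and the median was 0.019. Insm1 and Myt1, 2 of the 8, lay below the controls of their table on all 3 diabetic arrays, a mark that 10.7% of all genes tested reached. In the second table, with 1 array a group, Myt1 was lower by a small margin, at -0.081.

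**Figure D1:**
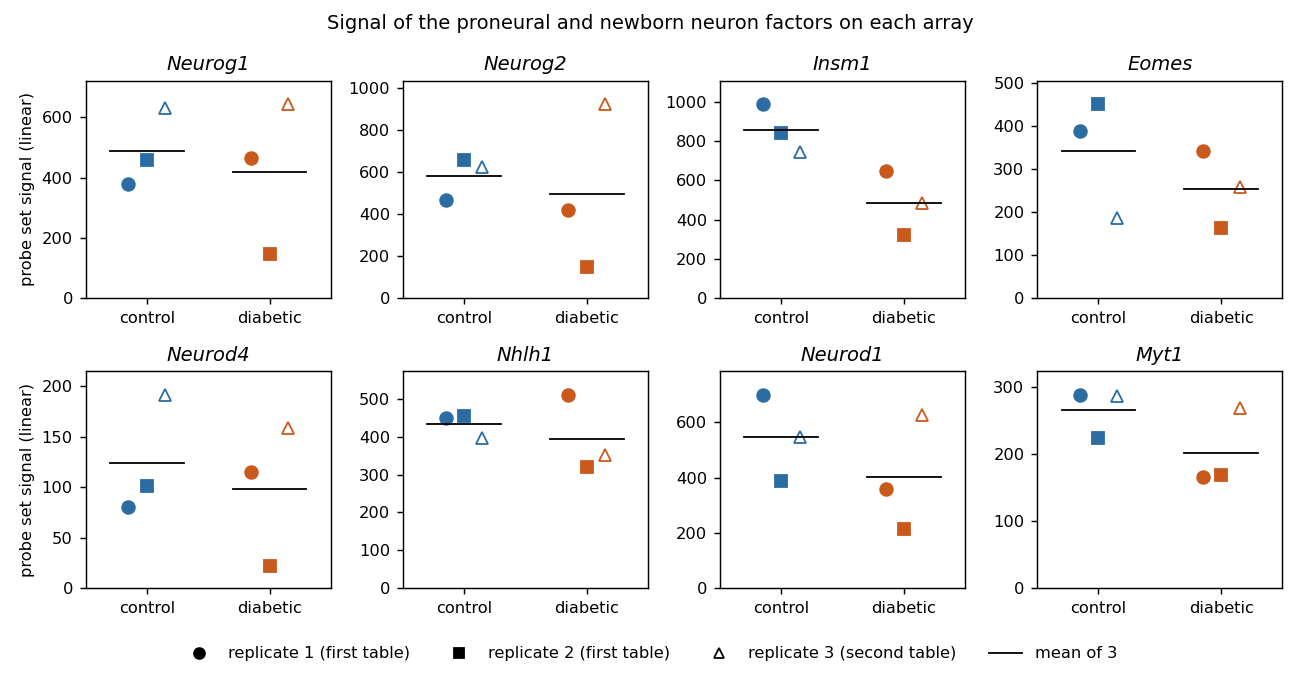
Linear probe set signal (y axis) of the 8 measured genes on the 3 control and 3 diabetic arrays, with filled symbols for the first value table, open triangles for the second and a line at the mean of 3. Diabetic replicate 2 (square) is the lowest of the 6 arrays for every gene except Myt1, for which it is the second lowest.

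Signals are linear intensities after each array was scaled to the same trimmed mean, and log2 changes are differences of log2(signal + 32) between diabetic and control arrays, fitted within value tables. The first table holds replicates 1 and 2 of both groups on one chip type and the second holds replicate 3 of both groups on another. Signals of different probe sets are not on a common scale, so genes are compared by their changes and not by their levels.

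Among the proneural factors, Neurog1 signals in order of replicate number, as in every sentence of this kind, were 378, 459 and 630 for controls and 465, 145 and 644 for diabetic brains. The groups overlapped: diabetic replicates 1 and 3 lay above the controls of their tables, and replicate 2 was the only low one. The fitted log2 change was -0.39 ± 0.33 (SE, n = 3 per group), with a 95% confidence interval from -1.14 to 0.36 and an adjusted p of 0.769 in limma. Without diabetic replicate 2 the change was 0.096. A second, dimmer probe set for Neurog1, with a mean signal of 135, was likewise lowest on diabetic replicate 2, at 33.4, and highest on diabetic replicate 1, at 258, and its log2 change was -0.16.

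Neurog2, the partner of Neurog1 in cortical and sensory neurogenesis, had signals of 468, 659 and 624 on the controls and 420, 148 and 923 on the diabetic arrays. Both diabetic brains of the first table were below its controls, and the diabetic brain of the second table was the highest of all 6 arrays. Its log2 change was -0.52 ± 0.39 (SE, n = 3 per group), with a 95% confidence interval from -1.39 to 0.36 and an adjusted p of 0.743. By table it was -1.04 (first) and 0.54 (second). The difference between tables was 1.59 ± 0.70 with an adjusted p of 0.732 in limma. Without diabetic replicate 2 the fitted change was 0.017.

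Insm1, a zinc finger repressor needed for the formation of basal progenitors, had the lowest log2 change of the 8 genes. Its signals were 989, 844 and 744 on the controls and 650, 322 and 486 on the diabetic arrays. Every diabetic value was below every control value, also across tables. The log2 change was -0.82 ± 0.24 (SE, n = 3 per group), a fold of 0.565, with a 95% confidence interval from -1.37 to -0.28 on the log2 scale. By size, 0.348% of the genes tested had a lower log2 change. In the main fit Insm1 was the 1 of the 8 genes that was lower at an unadjusted p under 0.05, a mark that 3.87% of all genes reached. Its adjusted p in limma was 0.56. The number of the genes at this mark was 3 with the mean of all probe sets and 5 within the first table. There 603 of 8320 and 846 of 8631 genes had such a p in either direction. By table the Insm1 change was -0.94 (first) and -0.58 (second). It was -0.52 without diabetic replicate 2, and leaving out single arrays moved it between -1.06 and -0.52.

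Eomes (Tbr2), the T-box factor of basal progenitors in the cortex, had signals of 388, 450 and 186 on the controls and 340, 161 and 258 on the diabetic arrays. The diabetic brains of the first table were below its controls, and that of the second table was above. Its log2 change was -0.36 ± 0.29 (SE, n = 3 per group) with a 95% confidence interval from -1.02 to 0.30 and an adjusted p of 0.759 in limma. By table it was -0.75 (first) and 0.41 (second), and it was 0.021 without diabetic replicate 2. The other Eomes probe set, with a mean signal of 115, was lower on all 3 diabetic arrays: its signals were 95.6, 122 and 225 on the controls and 57.5, 6.78 and 182 on the diabetic arrays. For this dimmer probe set the log2 change was -0.92, with -0.26 in the second table, so the 2 Eomes probe sets differed in sign there.

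Among the bHLH factors downstream of the neurogenins, Neurod4 (Math3) had signals of 80.1, 101 and 191 on the controls and 115, 22.2 and 158 on the diabetic arrays. Diabetic replicate 1 was above its controls, and diabetic replicate 2 was near the pseudocount of 32, where a log2 change is understated. The log2 change was -0.38 ± 0.31 (SE, n = 3 per group), with a 95% confidence interval from -1.09 to 0.32 and an adjusted p of 0.761 in limma. Without diabetic replicate 2 it was 0.051. The mean signal of 111 was close to the minimum of 100, and the second Neurod4 probe set, with a mean of 24.5, was too dim to be read.

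Nhlh1 (Hen1), a bHLH factor of cells that have just left the cell cycle, had the smallest change. Its signals were 449, 453 and 397 on the controls and 511, 320 and 352 on the diabetic arrays. The first diabetic brain was the highest of all 6, and the other two were below their controls. The log2 change was -0.15 ± 0.19 (SE, n = 3 per group), with a 95% confidence interval from -0.57 to 0.27, equal to folds of 0.673 to 1.21, and an adjusted p of 0.843 in limma. Without diabetic replicate 2 it was 0.026.

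Neurod1, which drives terminal neuronal differentiation, had signals of 700, 390 and 547 on the controls and 359, 216 and 627 on the diabetic arrays. Both diabetic brains of the first table were below its controls, while the controls of that table were themselves 0.80 log2 units apart. The log2 change was -0.49 ± 0.29 (SE, n = 3 per group), with a 95% confidence interval from -1.15 to 0.16 and an adjusted p of 0.697 in limma. It was -0.21 without diabetic replicate 2 and -0.17 without control replicate 1, which had the highest Neurod1 signal. The second Neurod1 probe set had nearly the same mean signal, 470 against 473, and gave -0.55, with signals of 430, 648 and 615 on the controls and 450, 287 and 390 on the diabetic arrays. In the second table the probe sets differed in sign, 0.19 for the first and -0.62 for the second.

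Myt1, a zinc finger factor that antagonises Notch signalling in newborn neurons, had signals of 289, 224 and 287 on the controls and 165, 169 and 269 on the diabetic arrays. All 3 diabetic arrays lay below the controls of their table, by a small margin in the second. The log2 change was -0.38 ± 0.17 (SE, n = 3 per group), with a 95% confidence interval from -0.76 to 0.011 and an adjusted p of 0.656 in limma. Myt1 was the 1 gene of the 8 in which the diabetic brains of the first table were alike, with differences from the control mean of -0.54 and -0.51. Its change was -0.34 without diabetic replicate 2 and -0.24 without control replicate 1.

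**Figure D2:**
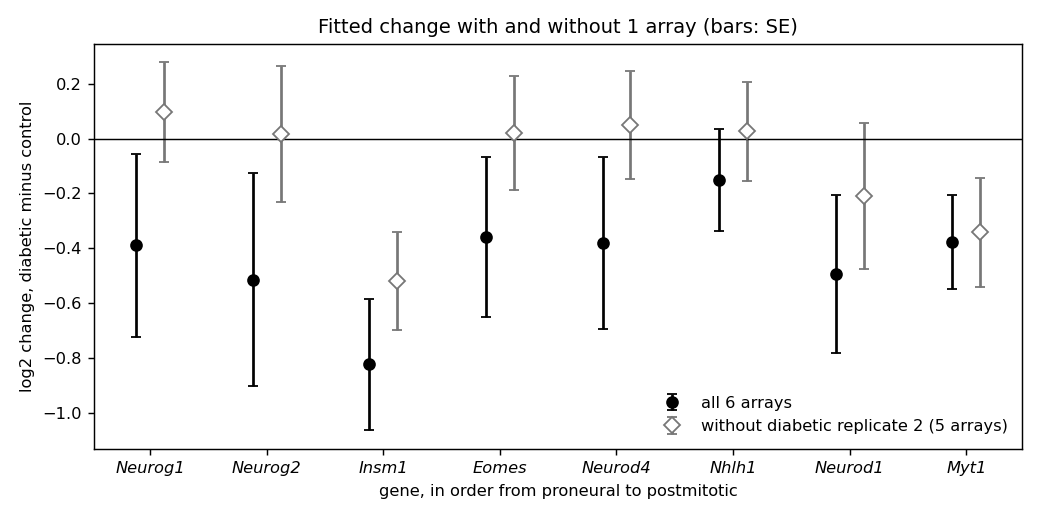
Fitted log2 change, diabetic minus control (y axis), of the 8 genes in order from proneural to postmitotic (x axis), with bars for the SE, from all 6 arrays (circles) and without diabetic replicate 2 (diamonds). The circles all lie below 0, and without that array Insm1, Neurod1 and Myt1 are the ones that stay below 0.

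With all arrays, 2 of the 8 genes, Insm1 and Myt1, had diabetic values beyond the controls of both tables on the lower side, against 10.7% of all genes tested. The order from proneural to postmitotic did not sort the changes: the first gene (Neurog1) had -0.39 and the last (Myt1) -0.38, and the extremes, Insm1 and Nhlh1, stood in between. Every interval but that of Insm1 reached both sides of 0, and an adjusted p above the threshold does not show that the levels were equal.

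The 3 diabetic brains differed from each other for these genes. On diabetic replicate 2 all 8 genes were below the control mean of the first table, with log2 differences from -1.71 (Neurog2) to -0.46 (Nhlh1) and a median of -1.20. On that array 6 of the 8, namely Neurog1, Neurog2, Insm1, Eomes, Neurod4 and Neurod1, were at least 1 log2 unit lower, a mark that 1.81% of all genes tested reached there. On diabetic replicate 1 the differences ran from -0.54 to 0.26 with a median of -0.33, and 5 of 8 genes were below 0. On diabetic replicate 3 they ran from -0.58 to 0.54 with a median of -0.026, and 4 of 8 were below 0. On replicates 1 and 3, 0 of the 8 genes were 1 log2 unit lower, a mark reached by 0.452% and 0.556% of all genes. For comparison, the 2 control brains of the first table differed by 0.013 (Nhlh1) to 0.80 (Neurod1) log2 units in size, while the 2 diabetic brains of that table differed by 0.028 (Myt1) to 1.49 (Neurog1).

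**Figure D3:**
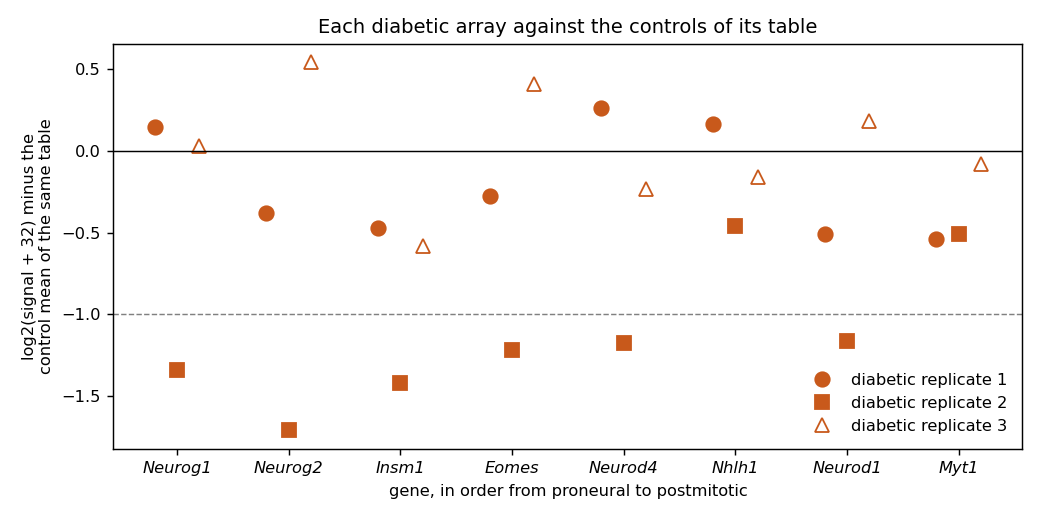
Difference in log2(signal + 32) between each diabetic array and the control mean of its value table (y axis) for the 8 genes (x axis), with the dashed line at 1 log2 unit below the controls. Diabetic replicate 2 (squares) lies below the dashed line for 6 genes, and diabetic replicates 1 and 3 lie above it for all 8.

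Across the 6 arrays, after the mean of each table was subtracted, the genes varied together to different degrees. Pearson correlations were 0.996 between Neurog2 and Eomes, 0.983 between Neurog1 and Neurod4 and 0.981 between Neurod4 and Nhlh1, while Myt1 had 0.261 to 0.354 with Nhlh1, Neurod4 and Neurog1 and 0.856 with Neurod1. These are descriptions over 6 arrays, in which diabetic replicate 2 is the farthest point for most genes. Among tested genes outside the gene lists, Slc17a6, the vesicular glutamate transporter VGLUT2 of excitatory neurons, had the most similar pattern to the mean of the 8, with a correlation of 0.999 over the 6 arrays. Its signals were 191, 175 and 359 on the controls and 133, 7.82 and 359 on the diabetic arrays, so it shared the low value on diabetic replicate 2. Next came Rc3h2, Dido1, Tnk1 and Mob1b, with correlations from 0.996 to 0.998, and 176 of 8515 genes had a correlation above 0.95.

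The surrounding pathway was described with gene lists, each by its counts and median beside the 47.8% of all genes below 0. In limma 0 genes of these lists passed. Of 9 tested bHLH relatives and dimerisation partners, 5 were below 0 and the median was -0.085. The E proteins are the general partners that the neurogenins and NeuroD factors need to bind DNA. Tcf4 stood at -0.57 ± 0.18 log2 units (SE, n = 3 per group), with every diabetic array below the controls of its table, Tcf12 had -0.27 ± 0.17 and Tcf3 stood on the other side with 0.32 ± 0.17. Olig1, a bHLH factor of ventral progenitors, had -0.21 ± 0.15. For Tcf4 the change was -0.55 without diabetic replicate 2.

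Of 10 tested inhibitors of proneural factors, from the Hes, Hey and Id families, the Notch pathway and Rest, 5 were below 0 and the median was -0.045. Without diabetic replicate 2, 2 of them were below 0 and the median was 0.10. Id1, which sequesters E proteins, stood at 0.33 ± 0.15 log2 units (SE, n = 3 per group) and lay above the controls of its table on all 3 diabetic arrays. Hes1, the Notch effector that represses proneural genes, had 0.32 ± 0.23, Id2 -0.28 ± 0.20 and Id4 -0.52 ± 0.38. Hes1 had 0.10 without control replicate 2, and Id2 had -0.053 within the first table. Id4 signals were 2736, 2910 and 3286 on the controls and 2486, 826 and 4179 on the diabetic arrays, and its change was 0.044 without diabetic replicate 2.

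Of 11 tested genes that proneural factors are known to switch on, 8 were below 0, with a median of -0.093. Without diabetic replicate 2, 5 of them were below 0 and the median was 0.091. Rnd2, a target of Neurog2 that acts in migrating neurons, had -0.37 ± 0.22 (SE, n = 3 per group), Btg2, an antiproliferative gene of neurogenic divisions, -0.36 ± 0.19, and Gadd45g -0.26 ± 0.18. Rnd2 had -0.14 without diabetic replicate 2 and 0.17 within the second table, and Gadd45g had -0.12 without control replicate 1 and 0.071 within the second table. Rcor2, a corepressor, stood opposite with 0.55 ± 0.24 (0.82 within the first table, 0.025 within the second). The Notch ligand Dll1, named after its values were seen, had 0.15 ± 0.21, with -0.15 within the first table and 0.75 within the second.

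Of 12 tested later neuronal transcription factors, 9 were below 0 with a median of -0.22 (8 and -0.21 without diabetic replicate 2). Bcl11b (Ctip2), a factor of deep-layer and striatal neurons, had -1.48 ± 0.38 (SE, n = 3 per group), with signals of 329, 167 and 534 on the controls and 33.4, 24.1 and 486 on the diabetic arrays. It was low on both diabetic arrays of the first table and near its control in the second. Ebf2 had -0.78 ± 0.30, Lhx1 -0.75 ± 0.36 and Lhx9 -0.73 ± 0.28, and without diabetic replicate 2 Lhx1 had -0.24 and Lhx9 -0.43. Ebf2 had -0.38 without control replicate 1. Neurod2, Neurod6, Tbr1, Myt1l and Onecut1 had mean signals under 100 and were not tested.

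Of 15 neuronal structure genes 14 were below 0, with a median of -0.27. Without diabetic replicate 2, 9 of them were below 0 and the median was -0.033, and within the second table the median was 0.061. The 4 with the smallest unadjusted p were Elavl4 with -0.60 ± 0.16 (SE, n = 3 per group), Ina with -0.76 ± 0.25, Dpysl3 with -0.42 ± 0.19 and Nefm with -0.35 ± 0.16. These 4 of the 15 were below the controls of their table on all diabetic arrays, a mark that 10.7% of all genes tested reached. Within the second table Nefm had -0.023. Ina had -0.43 and Dpysl3 -0.25 without diabetic replicate 2. Of 12 neural progenitor genes 5 were below 0 with a median of 0.14, which was 0.044 without diabetic replicate 2. Sox1 had 0.63 ± 0.16, Msi1 0.73 ± 0.44, Vim 0.28 ± 0.17 and Fabp7, on the other side, -0.62 ± 0.22 (-0.37 without diabetic replicate 2). For Msi1 the change was 0.058 without control replicate 1.

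**Figure D4:**
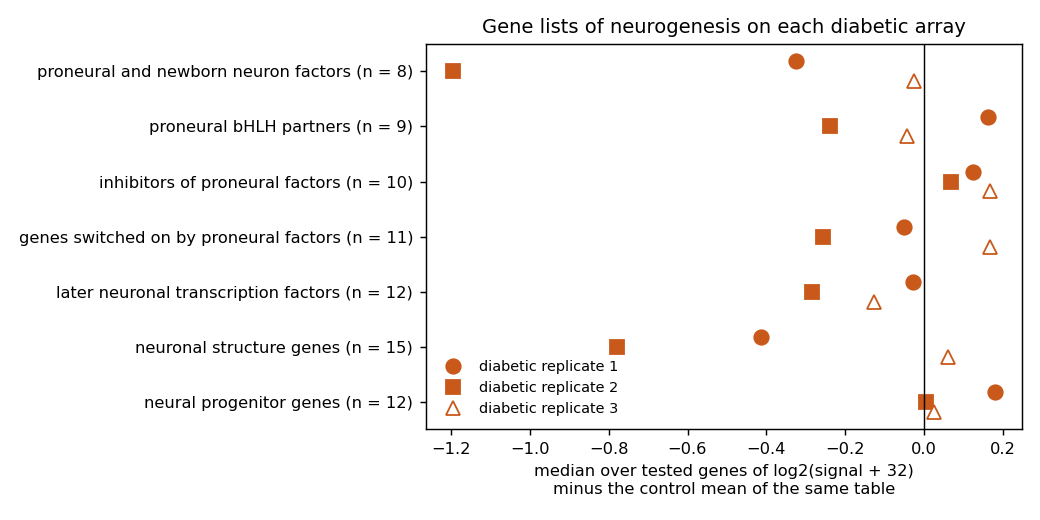
Median over the tested genes of each list of the log2 difference from the control mean of the same table (x axis), on each diabetic array, with the number of tested genes per list. Diabetic replicate 2 has its lowest median, -1.20, for the proneural and newborn neuron factors and the next, -0.78, for the neuronal structure genes.

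Markers of other tissues and brain regions are given beside these results, and their part in them was not tested. Cranial sensory ganglia, which also use Neurog1, Neurog2 and Neurod1, had 5 of 6 tested markers below 0 with a median of -0.072 (2 of 6 and 0.023 without diabetic replicate 2). Signals summed over the 8 measured markers ran from 1910 to 2205 in controls and 1673 to 2303 in the diabetic group. Summed signals here span both chip types, and bright probe sets weigh most in them. Isl1, Eya1, Prph and Ret had -0.22, -0.13, -0.091 and -0.052. Mesenchyme and meninges had 11 of 11 below 0 with a median of -0.30 (-0.26 without diabetic replicate 2), and summed signals of 15247 to 18676 in controls and 12338 to 15609 in the diabetic group; Foxd1 had -0.63, Postn -0.56, Pdgfra -0.42 and Prrx1 -0.39. Forebrain genes had 4 of 4 below 0 with a median of -0.12 (3 of 4 and -0.062 without diabetic replicate 2). Dlx1 had -0.58, Lhx2 -0.22, Six3 -0.020 and Dlx2 -0.0071. Midbrain and hindbrain genes had 3 of 6 below 0 with a median of 0.10 (2 of 6 and 0.22 without that array). Fgf17 had 0.70, Fgf8 0.50 and Pax8 0.26, while Hoxa2 had -0.29, Hoxb2 -0.055 and En2 -0.052. En1, Pax5, Gbx2 and Egr2 had mean signals under 100 and were not tested. Erythroid markers had 1 of 5 below 0 with a median of 0.16 (0.077 without diabetic replicate 2), and endothelial markers 3 of 6 with 0.0063 (0.085 without it). Markers of retina and eye had 2 of 3 below 0 with a median of -0.0047 (-0.075 without it). Crybb3 stood on the other side with 0.50 (0.40 without diabetic replicate 2), while Mitf had -0.15 and Six6 -0.0047. The retinal progenitor gene Rax and the retinal bHLH gene Atoh7 had mean signals under 100 and were not tested.

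Arrays of the same table were similar in the Gapdh control ratio, while diabetic replicate 2 had the lowest median signal and array weight of its table. The ratio of 3′ to 5′ Gapdh control signal was 0.802 on diabetic replicate 2, against 0.809 to 0.815 on the other arrays of its table and 0.701 to 0.725 in the second table. The same ratio for actin was 1.02 on diabetic replicate 2, against 0.922 (control replicate 1) to 1.03 on the other arrays of its table. In the second table the actin ratio was 1.16 to 1.19. Correlations over genes were 0.955 to 0.975 within the first table, 0.980 within the second and 0.916 to 0.947 between tables. Diabetic replicate 2 correlated best with diabetic replicate 1, at 0.97. With control replicates 1 and 2 it had 0.955 and 0.965. Its median signal was 210, against 221 to 227 on the other arrays of the first table. Its limma array weight was 0.641, against 0.722 to 2.08 on the other arrays.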

How the data were processed

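Brains of 3 control and 3 diabetic embryos were each measured on 1 Affymetrix array. Each deposited value is the linear intensity of a probe set, in 1 of 2 tables made with GCOS per the submitters' processing notes, with its version, algorithm and settings not given in the sources used here. The tables hold different chip types, MOE430A and Mouse430A_2, per the file headers. The 2% trimmed mean of every array was set to 500 and log2(signal + 32) was taken; low signals depend on how the authors' software handled background. Of 22690 probe sets, 20380 named 1 gene. For a gene with several, the probe set with the highest mean was used, and genes with a mean of at least 100 were tested. Groups came from the sample titles. limma 3.58.1 (R 4.3.3, lmFit, eBayes, two-sided, Benjamini-Hochberg over 8631 genes, threshold 0.05) was fitted with the value table as a block, with 3 residual and 6.37 prior degrees of freedom. On simulated data with planted changes, the mean estimated changes were checked, but not the calls. No depth exists for arrays, and their number limits precision: the median SE was 0.173. The genes, lists and tests were chosen with earlier results of these data known. All 9 listed genes were to be named, and from each other list up to 4 tested genes of smallest unadjusted p; the 5 genes of most similar pattern came from outside the lists. Alternatives covered the pseudocount, scaling, filter, probe set, array weights, replicate block, single tables and single arrays.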

Additional observations from a re-analysis of the deposited data

How the results depend on the processing

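In limma 0 genes were called under each of the 16 alternatives that allow a test, with 416 to 880 genes at an unadjusted p under 0.05. Leaving out either replicate 3 array gave the same fit as the first table alone, so the counts of alternatives hold that fit more than once. As single arrays were left out, the number of the 8 genes below 0 ran from 3, without diabetic replicate 2, to 8, and their median log2 change from -0.67 to 0.019, the latter without diabetic replicate 2. Without that array the changes turned to 0.096 for Neurog1, 0.017 for Neurog2, 0.021 for Eomes, 0.051 for Neurod4 and 0.026 for Nhlh1, and leaving out single arrays moved them down to -0.75, -1.04, -0.75, -0.77 and -0.33. In the second table alone, 1 array a group with no test, 4 of the 8 were below 0, and Neurog1 had 0.030, Neurog2 0.54, Eomes 0.41 and Neurod1 0.19. Insm1 and Myt1 stayed below 0 in all 17 alternatives. The cause of these differences was not tested. With the replicate number as a block (replicate block) the count of called genes was again 0 and Insm1 had the same -0.82 with an adjusted p of 0.506, against 0.395 to 0.948 over its other alternatives. Deviations of same-numbered arrays of the first table correlated at -0.013 over genes, which gave no sign of pairing by number; the second table, with 1 array a group, gives no such value, and the labels do not say what the numbers mark. The number of arrays limits these comparisons. Signal limits Neurod4 and the dimmer probe sets of Neurog1 and Eomes too, which were at or under about the pseudocount on diabetic replicate 2.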
